A study of Homo sapiens with 24 samples.

Results

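The genes of the TRAIL system were followed in cultures of sensory neurons derived from human pluripotent stem cells. They comprise TNFSF10, which encodes the ligand TRAIL, its receptor genes TNFRSF10A, TNFRSF10B, TNFRSF10C, TNFRSF10D and TNFRSF11B, the related death receptor gene FAS, and CASP8 and CFLAR, whose products act directly behind these receptors. TNFSF10 was selected on measured values, namely its lower counts in the IL-4 + IL-13 libraries, and the other 8 genes were chosen by their role. All 9 genes were found among the 36468 entries of the count table, each with 1 entry, and all 9 passed the filter on low counts in every fit. The neurons were differentiated from the line labelled H9WAO9, the H9 line, which is an established line of human embryonic stem cells, through vagal neural crest spheroids. Each of 6 batches of differentiation gave 1 library per group. The vehicle group received BSA in PBS, the TGF-β group 2 ng/ml TGF-β, and the IL-4 + IL-13 group 10 ng/ml IL-4 with 3 ng/ml IL-13, each for 5 days. The remaining group received IL-6, for which the labels state neither dose nor duration.

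TRAIL is a ligand of the tumor necrosis factor superfamily that is made as a membrane protein and can be shed. It binds DR4 and DR5, the products of TNFRSF10A and TNFRSF10B, which carry an intracellular death domain and recruit the adaptor FADD and caspase-8 into a death-inducing signaling complex. The decoy receptors encoded by TNFRSF10C and TNFRSF10D bind the same ligand without a functional death domain, and osteoprotegerin, the secreted product of TNFRSF11B, binds both TRAIL and RANKL. FAS uses the same adaptor and caspase, and c-FLIP, the product of CFLAR, competes with caspase-8 in the complex.

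The libraries were made from polyadenylated RNA of whole cultures, which contained neurons together with other cells. In such bulk samples, fewer cells of a type and less RNA per cell cannot be told apart. Between 33342682 and 39817784 reads were counted per library. Levels below are log2 CPM, the count scaled to a common library total, after scaling between libraries by the trimmed mean of M values, and differences between treatments were taken within batches. Libraries were correlated over 20962 genes after the mean of each treatment group was taken off each gene. These are thus correlations of what remained, not of levels. Libraries of the same treatment were left out of the correlations with other batches. By this measure 20 of the 24 libraries correlated best with the other libraries of their own batch. The 4 exceptions were all of batch 4 except its IL-6 library, and the vehicle library of batch 2. The latter correlated at a mean of 0.035 with its own batch and 0.427 with batch 4. The vehicle library of batch 4 in turn correlated at 0.152 with its own batch and 0.401 with batch 2. Within-batch differences to vehicle are therefore less certain in both batches. Values without the vehicle library of batch 2 are given below where leaving it out moved a fold change of TNFSF10 or of the decoy receptor genes. The vehicle library of batch 4 was not left out on its own, only together with its batch. All 8 neuron markers and all 8 sensory neuron markers examined were detected in every group. CISH and CCL26, both induced by STAT6 signaling in many cells, rose under IL-4 + IL-13 by 4.36 (SE 0.41) and 7.83 (SE 0.52) on the log2 scale (edgeR adjusted p = 0.00046 and 1.7e-05). SMAD7, a feedback target of TGF-β, differed by 0.16 (SE 0.11) under TGF-β, and SOCS3, a feedback target of IL-6 family cytokines, by 0.09 (SE 0.09) under IL-6, and neither passed the test.

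TNFSF10 lies on chromosome 3 of GRCh38.p14 (172505508 to 172523430, minus strand). The 250 bases upstream of its annotated start (RefSeq, GRCh38.p14, chr3:172523431-172523680, minus strand, written 5′ to 3′ in the direction of transcription) are shown because this was the member whose level moved most between treatments. Capitals mark the only match to the motifs that were searched.

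TNFSF10 upstream: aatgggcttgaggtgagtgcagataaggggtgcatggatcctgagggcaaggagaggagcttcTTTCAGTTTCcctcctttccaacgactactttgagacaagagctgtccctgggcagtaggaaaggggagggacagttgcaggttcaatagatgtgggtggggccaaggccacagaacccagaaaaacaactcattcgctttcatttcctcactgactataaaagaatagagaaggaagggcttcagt

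The capitals are a match, on the opposite strand, to GAAANNGAAA, the repeat bound by interferon regulatory factors, and begin at position -187 relative to the annotated start. This repeat was found on either strand in 3.02% of 35116 RefSeq promoter windows of 250 bases. Neither the STAT6-type palindrome TTCNNNNGAA (5.38% of windows), the STAT palindrome TTCNNNGAA (6.57%) nor the SMAD element CAGAC (38.0%) occurred in this window. The motifs do not overlap each other by their letters. These matches describe the sequence and were not tested for binding.

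TNFSF10 was the member that differed most between treatments. In the vehicle libraries its raw count ranged from 122 to 1133 with a median of 510.5. Under TGF-β it ranged from 144 to 1823 (median 1045), under IL-4 + IL-13 from 44 to 237 (median 128.5) and under IL-6 from 31 to 787 (median 432). The 4 groups overlapped when batches were pooled, because the lowest vehicle library, that of batch 6, stood below the highest IL-4 + IL-13 library, that of batch 4. Within batches the order was clearer. The IL-4 + IL-13 library was the lowest of the 4 in batches 1, 3, 4, 5 and 6, and in batch 2 only the IL-6 library was lower.

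**Figure D1:**
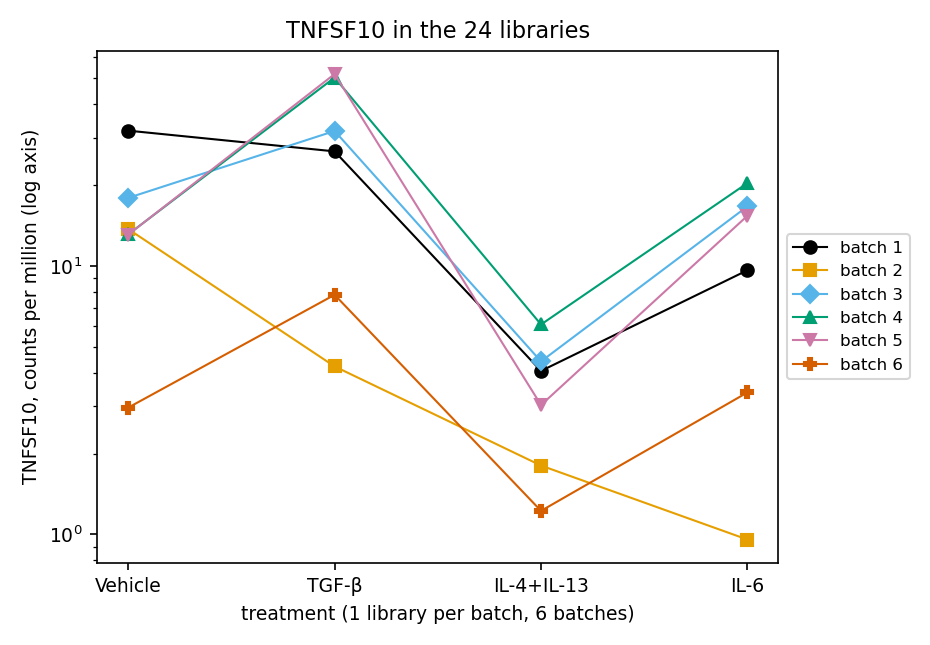
TNFSF10 in CPM on a log axis, with 1 point per library and lines joining the 4 libraries of a batch. Under IL-4 + IL-13 every batch lay below its own vehicle library, whereas TGF-β lay above vehicle in batches 3 to 6 and below it in batches 1 and 2.

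The mean level of TNFSF10 was 3.66 ± 1.13 log2 CPM with vehicle, 4.36 ± 1.49 under TGF-β, 1.60 ± 0.86 under IL-4 + IL-13 and 2.90 ± 1.70 under IL-6 (SD, n = 6 batches each). Against vehicle, the level was lower with IL-4 + IL-13 in 6 of 6 batches, with within-batch log2 differences from -2.97 in batch 1 to -1.11 in batch 4 and a mean of -2.06 ± 0.79 (SD). This corresponds to a 4.17-fold lower level on average and to between 2.16-fold and 7.82-fold in single batches. The fitted log2 fold change was -2.18 (SE 0.41). Because TNFSF10 was selected on this difference, these values describe it and no test is given. The thresholds were 0.05 for the adjusted p and 1 for the absolute log2 fold change, and no member chosen by role passed both. TNFSF10 passed them, but its selection on this difference favoured that, so 1 of 9 is no result about the members. Among all genes edgeR called 72 of 28701 (0.251%) and DESeq2 170 (0.592%). TNFSF10 no longer passed when any 1 of batches 1, 3, 4, 5 or 6, or the vehicle library of batch 2, was left out. Its fold change stayed between -2.38 and -1.81.

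TGF-β did not move TNFSF10 in a single direction. The within-batch log2 difference to vehicle was 0.83, 1.94, 1.99 and 1.39 in batches 3 to 6, but -0.26 in batch 1 and -1.69 in batch 2, with a mean of 0.70 ± 1.44 (SD, n = 6 batches). The fitted log2 fold change of 0.75 (SE 0.40) did not pass the test (edgeR adjusted p = 0.905). Without batch 2 it was 1.16 (edgeR adjusted p = 0.290), and without only the vehicle library of that batch it was 1.05 (edgeR adjusted p = 0.446). None of the 9 members was called in this comparison by edgeR, which called 6 of 28701 genes (0.0209%), or by DESeq2, which called 90 (0.314%).

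IL-6 and vehicle differed in either direction for TNFSF10. Levels under IL-6 were lower in batches 1, 2 and 3, by -1.73, -3.81 and -0.10, and higher in batches 4 to 6, by 0.63, 0.23 and 0.19. The fitted log2 fold change was -0.77 (SE 0.44, edgeR adjusted p = 0.850), and it was -0.23 without batch 2 and -0.36 without only the vehicle library of that batch. No member was called. edgeR called 0 of 29377 genes (0%), with 1400 genes at an unadjusted p under 0.05, while DESeq2 called 120 (0.408%).

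Between the treatments themselves, TNFSF10 was lower under IL-4 + IL-13 than under TGF-β in 6 of 6 batches, by a mean log2 difference of -2.76 ± 0.92 (SD), and the fitted value was -2.93 (SE 0.42). In this direct comparison it was again the only member past the thresholds, where edgeR called 257 of 28701 genes (0.895%) and DESeq2 444 (1.55%). It is described without a test here as well, since the comparison holds the libraries it was selected on. The difference from -4.09 in batch 5 to -1.21 in batch 2 was larger in every batch but batches 1 and 2 than that to vehicle. TGF-β against IL-6, which shares no IL-4 + IL-13 library, showed higher TNFSF10 under TGF-β in 6 of 6 batches, with a mean log2 difference of 1.46 ± 0.42 (SD) and a range of 0.93 to 2.11. IL-4 + IL-13 lay below IL-6 in 5 of 6 batches (mean -1.30 ± 1.14, SD), and in batch 2 it lay above it by 0.90.

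A difference of the same direction in all 6 batches was found for few members and also for a share of all 29377 genes. For TGF-β against vehicle this held for TNFRSF10C, and for 4.22% of all genes. For IL-4 + IL-13 against vehicle it held for TNFSF10 and TNFRSF11B (4.15% of all genes), and for IL-6 against vehicle for TNFRSF10A (2.32%). For IL-4 + IL-13 against TGF-β it held for TNFSF10 (9.92%), for TGF-β against IL-6 for TNFSF10 and CASP8 (7.39%), and for IL-4 + IL-13 against IL-6 for no member (4.62%).

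**Figure D2:**
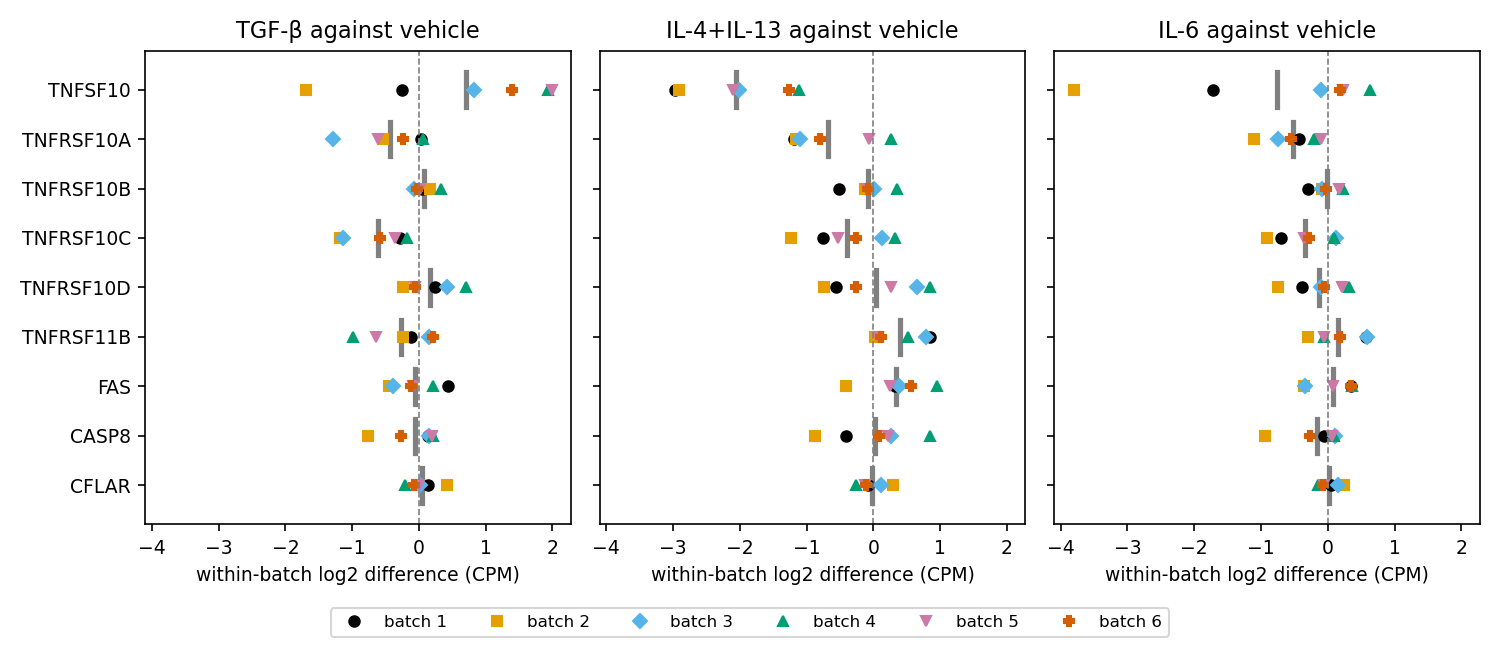
Within-batch log2 differences in CPM to the vehicle library for the 9 members under each of the 3 treatments, with 1 point per batch and a grey bar at the mean. TNFSF10 spread from -3.81 to 1.99 over the 3 panels, while CFLAR stayed between -0.25 and 0.42.

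The genes of the death receptors DR4 and DR5 were not called in any comparison. TNFRSF10B, which encodes DR5, lies on chromosome 8 (23020133 to 23069031, minus strand) beside TNFRSF10A, TNFRSF10C and TNFRSF10D. Its raw count was 3871 to 10892 with vehicle (median 4500.5), 3953 to 10355 under TGF-β (median 4584), 3655 to 8267 under IL-4 + IL-13 (median 4349.5) and 3696 to 8501 under IL-6 (median 4627.5). The 4 ranges overlapped over most of their length. Its log2 fold changes against vehicle were 0.08 (SE 0.09) under TGF-β, -0.07 (SE 0.09) under IL-4 + IL-13 and -0.02 (SE 0.08) under IL-6. A part of its exons, 377 bases, overlaps RHOBTB2 on the opposite strand, and strandedness is not given in the sources used here, so reads from that stretch cannot be assigned. RHOBTB2 was not called either, with -0.03 (SE 0.07) under IL-4 + IL-13.

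TNFRSF10A, which encodes DR4, was the member with the fewest counts. It lies on chromosome 8 (23190452 to 23225102, minus strand). Its count was 62 to 218 with vehicle (median 78), 37 to 206 under TGF-β (median 49.5), 31 to 103 under IL-4 + IL-13 (median 54) and 28 to 156 under IL-6 (median 53). All 3 treated groups had a lower median than vehicle and overlapped it. The level was lower than vehicle in 6 of 6 batches under IL-6 (mean log2 difference -0.52 ± 0.37, SD), in 5 of 6 under IL-4 + IL-13 (-0.67 ± 0.62) and in 4 of 6 under TGF-β (-0.43 ± 0.51). None of these passed the test, with fitted values of -0.54 under IL-6 (edgeR adjusted p = 0.850), -0.66 under IL-4 + IL-13 (edgeR adjusted p = 0.537) and -0.41 under TGF-β (edgeR adjusted p = 0.944). The 3 comparisons share the vehicle libraries.

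Of the decoy receptor genes, TNFRSF10C lay below vehicle under TGF-β in every batch. This gene, on chromosome 8 (23102921 to 23117445, plus strand), encodes a receptor anchored by a lipid without an intracellular part. Counts were 124 to 553 with vehicle (median 186) and 60 to 420 under TGF-β (median 139.5), and the groups overlapped. Within batches the log2 difference ranged from -1.18 to -0.17 with a mean of -0.62 ± 0.44 (SD), and the fitted value of -0.60 (SE 0.21) did not pass the test (edgeR adjusted p = 0.548, DESeq2 adjusted p = 0.195). Without the vehicle library of batch 2 it was -0.45. Under IL-4 + IL-13 and IL-6 the fitted values were -0.37 (SE 0.21) and -0.35 (SE 0.19), each with 4 of 6 batches lower, and without the vehicle library of batch 2 they were -0.22 and -0.21. For this gene 27.9% of the 50-base words of its transcripts also occur in other annotated genes, so its counts depend on how shared reads were assigned. TNFRSF10D, on chromosome 8 (23135588 to 23164027, minus strand), which encodes a receptor with a truncated death domain, had 650 to 1527 counts with vehicle, 737 to 1671 under TGF-β, 629 to 1656 under IL-4 + IL-13 and 627 to 1197 under IL-6. Its fold changes against vehicle lay between -0.14 (IL-6) and 0.16 (TGF-β) on the log2 scale, with adjusted p values in edgeR from 0.895 to 1. Without the vehicle library of batch 2 its values were 0.29 under TGF-β, 0.17 under IL-4 + IL-13 and -0.017 under IL-6. In IL-4 + IL-13 cultures it was higher than vehicle in batches 3, 4 and 5 and lower in batches 1, 2 and 6.

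TNFRSF11B, the osteoprotegerin gene, had within-batch differences of the opposite sign to those of TNFSF10 under IL-4 + IL-13. It lies on chromosome 8 (118923557 to 118951885, minus strand), apart from the cluster of the other receptors. Counts were 357 to 877 with vehicle (median 702), 359 to 637 under TGF-β (median 531), 540 to 1208 under IL-4 + IL-13 (median 896.5) and 555 to 841 under IL-6 (median 692). The groups overlapped, with the highest library of all in IL-4 + IL-13 batch 4. Against vehicle, IL-4 + IL-13 was higher in 6 of 6 batches, from 0.03 to 0.85 with a mean of 0.40 ± 0.37 (SD), and the fitted 0.41 (SE 0.17) did not pass the test (edgeR adjusted p = 0.610). Against TGF-β it was higher in 5 of 6 batches. The fitted log2 fold change of 0.66 (SE 0.17) had an adjusted p of 0.0807 in edgeR and of 0.0101 in DESeq2, and stayed under the fold threshold with both. TGF-β against vehicle gave -0.25 (SE 0.17, edgeR adjusted p = 0.971).

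**Figure D3:**
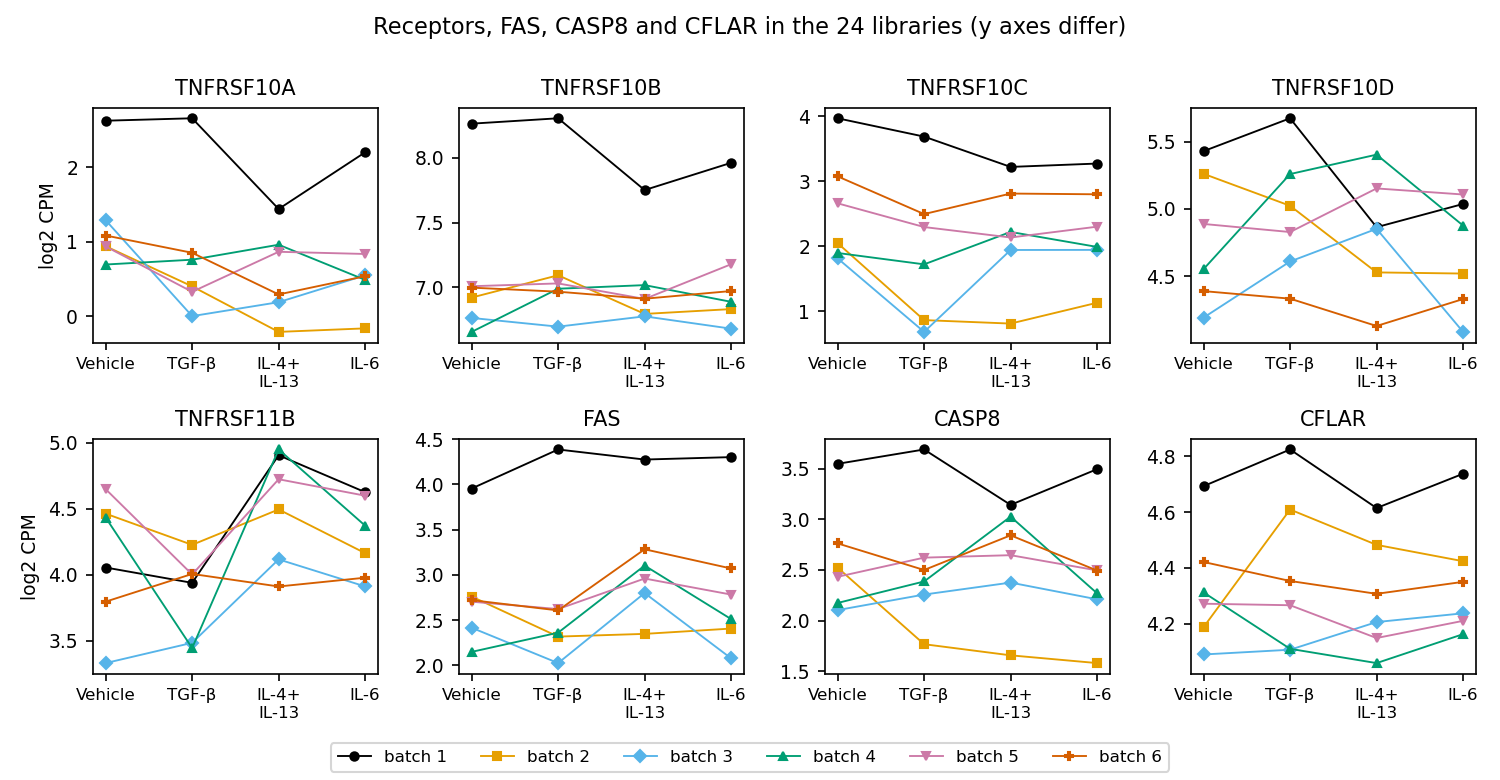
Log2 CPM of the 8 members other than TNFSF10 by treatment, with 1 point per library and lines joining the libraries of a batch. For TNFRSF10A, TNFRSF10B, TNFRSF10C, FAS, CASP8 and CFLAR the 4 libraries of batch 1 stood above the other 20.

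FAS, on chromosome 10 (88964050 to 89017059, plus strand), encodes the receptor of FAS ligand. It had 172 to 548 counts with vehicle (median 238.5), 154 to 683 under TGF-β (median 192), 188 to 741 under IL-4 + IL-13 (median 308) and 155 to 671 under IL-6 (median 228.5). IL-4 + IL-13 cultures were higher than vehicle in 5 of 6 batches and lower in batch 2, and the fitted log2 fold change was 0.35 (SE 0.16, edgeR adjusted p = 0.652). Without batch 2 it was 0.51. FAS overlaps ACTA2, the smooth muscle actin gene, over 387 exon bases on the opposite strand, and ACTA2 had 180583 counts over the 24 libraries against 7159 for FAS. ACTA2 itself had a log2 fold change of -0.19 (SE 0.21) under IL-4 + IL-13 and was not called. The FAS ligand gene FASLG was among the 3 of 6 other death ligand genes left out by the filter on low counts.

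CASP8 and CFLAR, neighbours on chromosome 2 (201233463 to 201287711 and 201116164 to 201176687), were not called in any comparison. CASP8 encodes the initiator caspase of the complex. Its counts were 152 to 414 with vehicle, 115 to 422 under TGF-β, 116 to 338 under IL-4 + IL-13 and 96 to 384 under IL-6. The largest of its fold changes was -0.19 (SE 0.16) on the log2 scale, for IL-6 against vehicle, and the TGF-β library lay above the IL-6 library in each batch by a mean of 0.11 ± 0.08 (SD). CFLAR varied least. Its counts were 605 to 916 with vehicle, 570 to 927 under TGF-β, 614 to 939 under IL-4 + IL-13 and 642 to 909 under IL-6, and its fold changes lay between -0.08 and 0.05 with SEs of 0.07 to 0.08. The log2 ratio of CFLAR to CASP8 per transcript length was -0.72 ± 0.35 with vehicle, -0.61 ± 0.56 under TGF-β, -0.77 ± 0.62 under IL-4 + IL-13 and -0.52 ± 0.53 under IL-6 (SD, n = 6), which differed by less than the spread between batches. The sign of this ratio depends on the length used, since with all exon bases CFLAR (0.901 CPM per kb) slightly exceeded CASP8 (0.882) in vehicle cultures.

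Levels of different genes were compared as CPM per kb of the MANE Select transcript. TNFRSF10B was the most abundant of the 9 in vehicle cultures, at 37.3 ± 19.6 CPM per kb (SD, n = 6). TNFRSF11B (8.71 ± 2.72), TNFSF10 (8.25 ± 5.05) and TNFRSF10D (8.19 ± 2.82) followed and did not differ beyond their spread. With all exon bases of a gene as its length, TNFSF10 stood lower, at 4.50 CPM per kb, beside TNFRSF10C (4.48) and below TNFRSF10D (8.19) and TNFRSF11B (7.24). TNFRSF10C stood at 4.96 ± 3.33, CASP8 at 2.40 ± 1.03, FAS at 2.03 ± 1.08, CFLAR at 1.39 ± 0.21 and TNFRSF10A at 0.992 ± 0.642 CPM per kb, each within the spread of its neighbours in this order. Of the 4 membrane TRAIL receptors, TNFRSF10B held between 67.0% and 77.7% of the CPM per kb in all 24 libraries, and the decoys TNFRSF10C and TNFRSF10D together between 20.2% and 31.6%. The median share of TNFRSF10B was 71.7% with vehicle, 75.2% under TGF-β, 72.6% under IL-4 + IL-13 and 74.9% under IL-6, and the groups overlapped. TNFSF10 itself stood at 15.4 ± 10.8 CPM per kb under TGF-β, 1.83 ± 0.95 under IL-4 + IL-13 and 5.90 ± 4.13 under IL-6.

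**Figure D4:**
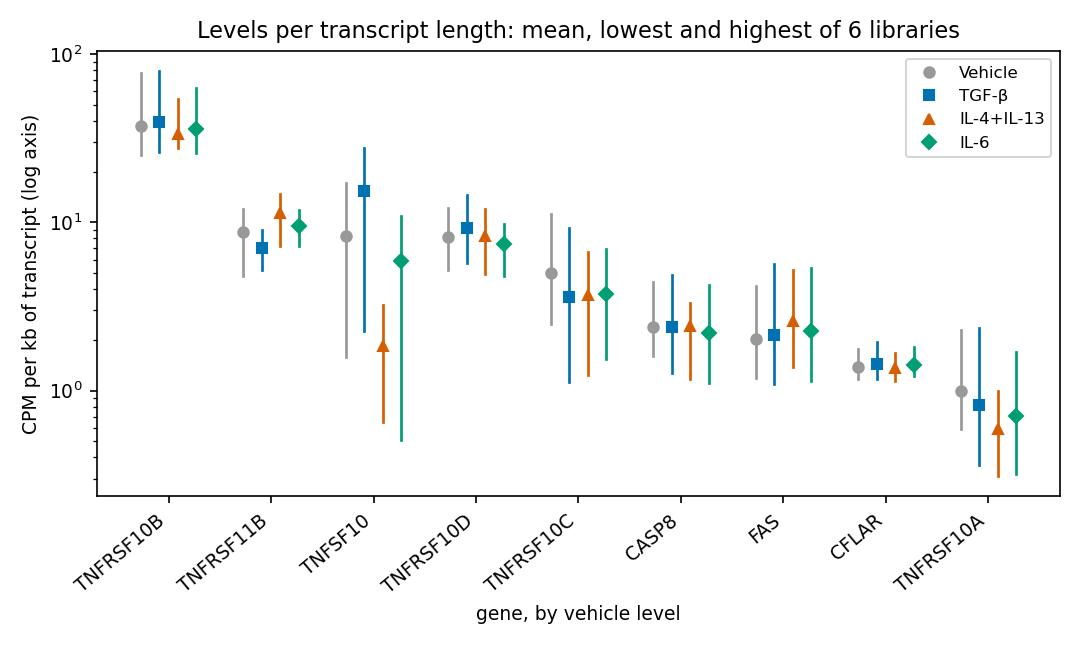
CPM per kb of transcript on a log axis for the 9 members, ordered by the vehicle mean. Symbols are group means and lines run from the lowest to the highest of 6 libraries. TNFRSF10B lay above the other 8 genes in mean level in each group, and TNFSF10 spread most.

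Batch of differentiation separated most members more than treatment did. The share of the variance in log2 CPM that lay between batches was 92.4% for TNFRSF10B, 86.9% for FAS, 83.1% for CFLAR, 82.9% for TNFRSF10C, 80.8% for CASP8 and 73.5% for TNFRSF10A. For these 6 genes all 4 libraries of batch 1 exceeded the 20 libraries of the other batches, with a mean log2 difference from 0.45 for CFLAR to 1.65 for TNFRSF10A. TNFSF10 and TNFRSF11B had the largest shares between treatments, 41.3% and 31.2%, next to 42.4% and 41.1% between batches, and batch 1 did not stand apart for them or for TNFRSF10D. A share of this kind is a description and includes the difference TNFSF10 was selected on.

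Other genes of the death receptor pathway were examined from lists written by role, with calls by edgeR only. For IL-6 against vehicle edgeR called 0 of 29377 genes, so no list could hold a call there. Against vehicle, no gene was called among the other death receptors (6 tested), the adaptors and initiators of the complex (8), the executioner caspases and mitochondrial arm (11), the inhibitors of the IAP and BCL2 families (7), the p53 targets (10) or the CHOP and ATF4 targets (8), under any of the 3 treatments. Median log2 fold changes of these lists under IL-4 + IL-13 lay between -0.07 and 0.14, where all genes tested had a median of 0.00. APAF1, the scaffold of the apoptosome, was 0.45 higher (SE 0.07) under IL-4 + IL-13 with an adjusted p of 0.00989 in edgeR, but under the fold threshold. Of the other death ligand genes, TNFSF15 and TNFSF11, which encode TL1A and RANKL, had log2 fold changes of -1.26 (SE 0.37) and -1.46 (SE 0.57) under IL-4 + IL-13 that did not pass the test (edgeR adjusted p = 0.334 and 0.576). In the direct comparison with TGF-β, IL-4 + IL-13 cultures had higher CASP10, the paralog of CASP8, by 1.27 (SE 0.29, edgeR adjusted p = 0.0435) at a mean count of 16.8. Against vehicle CASP10 had -0.14 with IL-4 + IL-13 and -1.41 with TGF-β (edgeR adjusted p = 0.129), and neither passed. Directly against TGF-β, IL-4 + IL-13 cultures also had higher TNFSF13, which encodes APRIL, by 1.02 (SE 0.16, edgeR adjusted p = 0.00557). TNFSF4, which encodes OX40 ligand, was lower there, by -1.28 (SE 0.18, edgeR adjusted p = 0.00257). Against vehicle TNFSF13 had 0.82 with IL-4 + IL-13 and -0.20 with TGF-β. TNFSF4 had -0.51 with IL-4 + IL-13 and 0.77 with TGF-β, and no value against vehicle passed. TNFSF10 is itself an interferon-stimulated gene in many cells, and 14 other such genes were tested. None was called against vehicle. In the direct comparison IFIT2 and IFIT3 were called higher under IL-4 + IL-13, by 1.04 and 1.28, and IFI44L lower (edgeR adjusted p = 0.0174), with a list median of 0.30. Against vehicle IFIT2 had 0.23 with IL-4 + IL-13 and -0.80 with TGF-β, IFIT3 had 0.53 and -0.76, and IFI44L had -1.04 and 0.46. None of these passed.

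Markers of several cell types differed between the same libraries. The summed CPM of 8 mesenchymal markers was 3231 to 10558 with vehicle, 4175 to 13444 under TGF-β and 2673 to 6267 under IL-4 + IL-13, lower than vehicle in 5 of 6 batches under IL-4 + IL-13 and lower than TGF-β in 6 of 6. COL1A1 of this list was called in the direct comparison, by -1.31 (SE 0.28). The lower sum against TGF-β did not hold gene by gene, since 4 of the 8 genes were higher and 4 lower. The middle of their log2 fold changes there was -0.03. Against vehicle all 8 genes had lower fitted values, and the middle value was -0.23. Summed endothelial markers (8) went the other way, from 40.9 to 136 CPM with vehicle to 78.1 to 181 under IL-4 + IL-13, higher in 6 of 6 batches, although the median log2 fold change of the 8 genes was -0.08. Summed neuron markers (8) were 1745 to 10411 CPM with vehicle and 2590 to 9876 under IL-4 + IL-13. The myeloid markers AIF1 and TYROBP were at 0 in all 24 libraries. The part of these cell types in the differences of TNFSF10 was not tested.

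The genes whose levels followed TNFSF10 most closely over the 24 libraries, after the mean of each batch was taken off, were LTBP2 (Pearson r = 0.934), LIF (0.929), TMEM92 (0.918), CDCP1 (0.917) and CTSV (0.914), among 13232 genes with a mean count of at least 50. LTBP2 encodes a latent TGF-β binding protein of the matrix, LIF a cytokine of the IL-6 family and CTSV a lysosomal protease. Under IL-4 + IL-13 their log2 fold changes against vehicle ranged from -1.08 (LTBP2) to -2.41 (TMEM92), and under TGF-β from 0.24 (CTSV) to 0.74 (LIF). The most opposite genes were MEST (-0.927), OSBPL11 (-0.917), KIF18A (-0.906), ALDH9A1 (-0.901) and NEK11 (-0.893). Of the other members, TNFRSF10B (0.459) and TNFRSF10A (0.395) were the most alike and TNFRSF11B (-0.636) and FAS (-0.452) the most opposite. All points share the libraries, and the vehicle library of batch 2, high for TNFSF10 within its batch, is one of them.

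**Figure D5:**
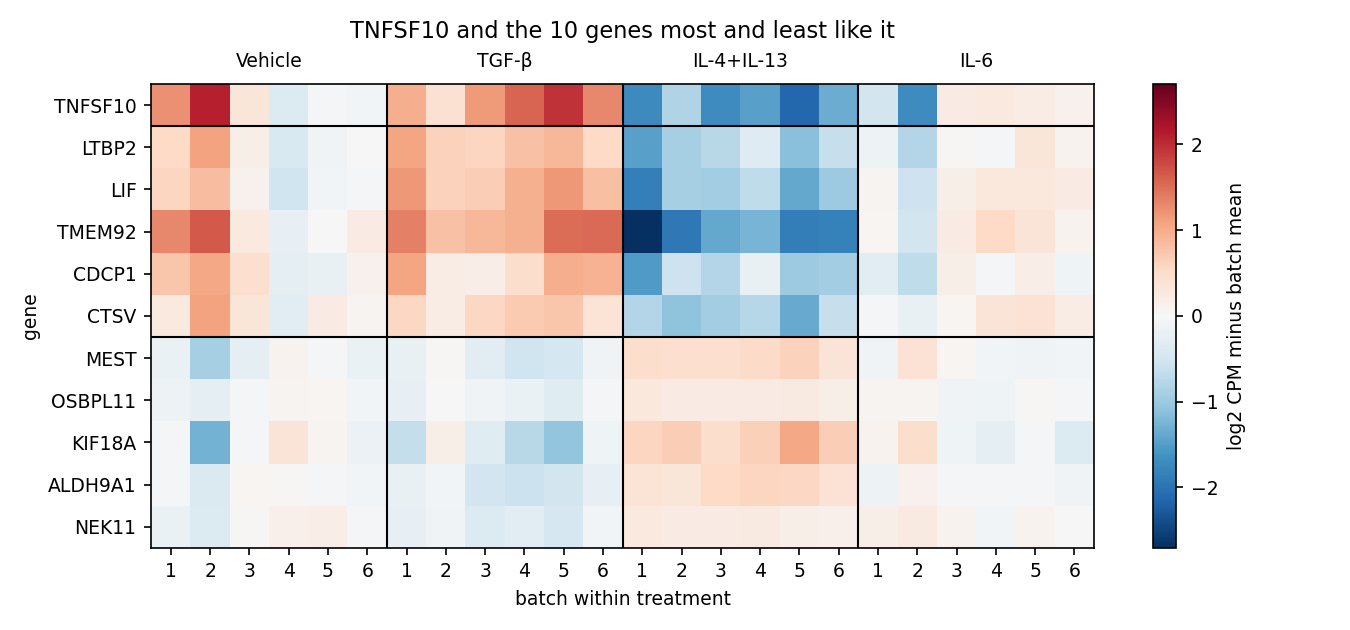
Log2 CPM minus the batch mean for TNFSF10, the 5 genes most like it and the 5 most opposite, in 24 libraries ordered by treatment and batch. Red is above and blue below the batch mean. TNFSF10 and the genes most like it were below it in each of the 6 IL-4 + IL-13 libraries, values that entered their selection.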

How the data were processed

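Polyadenylated RNA of 24 cultures was sequenced, with 1 library for each of 4 treatments in 6 batches. The deposited table holds unnormalized counts of reads for each gene, which the authors obtained through quality control, adapter trimming with Trimmomatic 0.30 (per the submitters' processing notes), alignment to GRCh38.p14 and counting. The aligner, the counter and the strandedness are not given in the sources used here. Of 36468 entries, 13161 are loci named NewGene and 4886 share a symbol, and these were kept apart. No 2 libraries held identical values. Total counts per library ranged from 33342682 to 39817784 (median 35775126).

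Counts were fitted with edgeR 4.0.16 in R 4.3.3 (TMM, robust quasi-likelihood F test, batch and treatment as terms, Benjamini-Hochberg over all genes whose counts summed to 10 or more). The 18 libraries without IL-6 entered 1 fit, and the IL-6 comparison came from a second model over the full 24. A call needed an adjusted p below 0.05 together with an absolute log2 fold change above 1. SEs were derived from the fold change and the F statistic. DESeq2 1.42.0 with the same terms was the alternative. The script was tested on simulated data. Samples were grouped by the treatment label and paired by the batch number of the labels. In the correlations between libraries, with treatment means taken off, 20 of the 24 libraries were closest to their own batch. Libraries of 1 line have no donors. With batch as a term, p-values rest on how treatment differences varied between batches of differentiation, not on differences in level between batches.

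Levels are log2 CPM with a prior count of 1. Lengths are those of GENCODE v44, matching GRCh38. Loci and upstream sequence are RefSeq's. Marker and pathway genes named are those called in any comparison, up to 3 per list with the largest change under IL-4 + IL-13 at a mean count of at least 10, and treatment checks. A marker result that met this rule is not reported here. The members and lists were chosen with earlier results of these data known. The MANE Select length was chosen after seeing the data.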

Additional observations from a re-analysis of the deposited data

Results flagged for a closer look

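In 72 groups of 6 values, the level of each member in each treatment and its within-batch difference for the 3 treatments against vehicle and for IL-4 + IL-13 against TGF-β, 8 held a value farther from the others than Dixon's 95% limit allows. Chance flags about 1 in 20 such groups, and these groups share libraries.

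In 7 of the 8, the value was the library of batch 1 and the highest of its group. These were TNFRSF10A at 2.63 log2 CPM with vehicle (next 1.29) and 2.66 under TGF-β (next 0.85), TNFRSF10B at 8.26 with vehicle (next 7.01), 8.30 under TGF-β (next 7.09) and 7.75 under IL-4 + IL-13 (next 7.02), and FAS at 3.95 with vehicle (next 2.76) and 4.38 under TGF-β (next 2.62). The cause was not tested.

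The remaining value was the within-batch log2 difference of CASP8 for IL-6 against vehicle in batch 2, at -0.94 where the next was -0.27. It is taken against the vehicle library of batch 2, which, with treatment means taken off, correlated at 0.035 with the rest of its batch. Without that vehicle library the fitted log2 fold change of CASP8 was -0.016.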

How the results depend on the processing

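Of 540 fold changes of members refitted under the alternatives, 509 kept their direction and their side of the thresholds, 22 turned direction and 9 lost the call. All 9 are of TNFSF10, whose direction held in every alternative. Without the replicate block, that is unpaired, its log2 fold change was -2.18 against vehicle and -3.07 against TGF-β and was called in neither, so that 0 members were called, and the counts of all genes called fell to 0 for TGF-β against vehicle, 9 for IL-4 + IL-13 against vehicle and 23 in the direct comparison. With no filter beyond a total count of 1, TNFSF10 was not called against vehicle (-2.19) and 0 members were. With DESeq2, 120 genes were called for IL-6, 90 for TGF-β, 170 with IL-4 + IL-13 and 444 in the direct comparison. For TGF-β they were 15 with library sizes alone, 13 with the first entry of each symbol and 42 in a fit with the IL-6 libraries, and for IL-4 + IL-13 109 in that fit. Leaving out 1 batch or the vehicle library of batch 2 gave 0 to 11 genes for TGF-β, 20 to 85 for IL-4 + IL-13 and 84 to 334 in the direct comparison, against 6, 72 and 257, and 0 to 1 members for IL-4 + IL-13. The lowest count came without batch 5 in the last 2, and only leaving out batch 2 kept TNFSF10 called against vehicle. The cause of these changes was not tested, and the fits with libraries left out also hold fewer libraries.

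Directions turned only for fold changes near 0. FAS under TGF-β was 0.084 without the block and -0.17 to 0.067 over libraries left out, against -0.06. The other ranges were -0.12 to 0.11 for CASP8 and -0.017 to 0.10 for CFLAR under TGF-β, -0.15 to 0.0067 for TNFRSF10B, -0.11 to 0.22 for TNFRSF10D, -0.14 to 0.23 for CASP8 and -0.091 to 0.020 for CFLAR under IL-4 + IL-13, -0.064 to 0.039 for TNFRSF10B and -0.039 to 0.057 for CFLAR under IL-6, and -0.19 to 0.014 for TNFRSF10D and -0.031 to 0.21 for CASP8 in the direct comparison. With exon unions as length, FAS stood at 0.256, CASP8 at 0.882 and CFLAR at 0.901 CPM per kb, and with the longest transcript FAS at 0.455, and TNFSF10 at 4.50 with exon unions, so the order of the genes below TNFRSF10B depends on the length used. Of the 5 genes most like TNFSF10, 3 were kept with Spearman correlation and 0 without taking off the batch mean. With 28 to 218 counts per library, TNFRSF10A had the fewest reads of the 9 members.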
